A study of Mus musculus with 25 samples.

Results

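Cyp3a11, Cyp3a13, Cyp3a16 and Cyp3a25 are 4 genes of the mouse Cyp3a family of cytochromes P450. They were followed through the probe sets annotated to exactly 1 of these symbols. Each gene had 1 such set, so 4 of the 45037 probe sets on the array without its controls are described, and 4 of the 18193 genes that the array represents. Of 6 sets with a Cyp3a symbol, the other 2 were the set of Cyp3a44 and a set that carries 2 symbols. The RNA came from whole livers of C57/B6 mice without treatment, and the livers of a stage were pooled before extraction. There were 8 fetal pools, of embryonic days 11.5, 12.5 and 13.5 (12, 9 and 9 livers), 14.5 and 15.5 (6 livers in each pool) and 16.5, 17.5 and 18.5 (3 in each). They are called E11.5 to E18.5. The 6 postnatal pools were those of the day of birth (Day0), days 3, 7, 14 and 21, and 18 weeks (Adult), with 3 livers each. Repeat arrays of the same pool were made for 11 stages, 2 each, and 1 array for E18.5, Day7 and Day14, which gave 25 arrays. The sex of the animals is not given in the labels used here.

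CYP3A enzymes are heme-containing monooxygenases of the endoplasmic reticulum that oxidise drugs, steroid hormones and bile acids, with electrons passed on by P450 reductase. They are abundant in hepatocytes, and the pregnane X receptor Nr1i2 and the constitutive androstane receptor Nr1i3 induce them when foreign compounds or bile acids are present. In the mouse Cyp3a11 is the main adult liver form, Cyp3a25 is a further adult form, Cyp3a13 is also found in the intestine, and Cyp3a16 is known as a fetal and neonatal form. In the RefSeq gene table of assembly GRCm38.p6, Cyp3a16, Cyp3a44, Cyp3a11 and Cyp3a25 lie in this order in 1 cluster on chromosome 5. Among coding genes, the only ones counted, none but Cyp3a genes stand between them, while 121 other coding genes separate Cyp3a13 from the cluster.

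Promoter windows of 300 bases around the gene start (RefSeq, build GRCm38.p6) are shown for the 2 genes that rose first and for Cyp3a25, which rose last. All 4 members matched the RefSeq table. Motif positions count from the gene start. The windows lie on the minus strand at chr5:145879805-145880104 for Cyp3a11, chr5:145469674-145469973 for Cyp3a16 and chr5:146009569-146009868 for Cyp3a25. Capitals mark matches, on either strand, to TGTTTAC (core of FOXA sites), CAAAGTC (core of HNF4 sites), AGGTCA (a nuclear receptor half-site), GTTAAT (from HNF1 sites) and TATAA. Neighbouring matches can overlap, and the motifs were chosen with these windows in view. For Cyp3a25 the window of the first listed start is shown.
Cyp3a11: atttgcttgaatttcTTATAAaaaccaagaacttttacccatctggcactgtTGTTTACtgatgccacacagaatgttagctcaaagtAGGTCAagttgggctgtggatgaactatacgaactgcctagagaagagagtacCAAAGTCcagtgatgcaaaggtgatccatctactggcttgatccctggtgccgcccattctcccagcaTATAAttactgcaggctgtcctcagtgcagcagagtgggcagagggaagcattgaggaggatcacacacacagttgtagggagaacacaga
Cyp3a16: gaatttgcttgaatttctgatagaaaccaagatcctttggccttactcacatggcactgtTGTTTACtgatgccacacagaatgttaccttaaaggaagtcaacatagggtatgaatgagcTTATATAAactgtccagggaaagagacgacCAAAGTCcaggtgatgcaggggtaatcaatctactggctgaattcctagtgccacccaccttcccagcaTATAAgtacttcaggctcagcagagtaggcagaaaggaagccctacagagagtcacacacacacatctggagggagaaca
Cyp3a25: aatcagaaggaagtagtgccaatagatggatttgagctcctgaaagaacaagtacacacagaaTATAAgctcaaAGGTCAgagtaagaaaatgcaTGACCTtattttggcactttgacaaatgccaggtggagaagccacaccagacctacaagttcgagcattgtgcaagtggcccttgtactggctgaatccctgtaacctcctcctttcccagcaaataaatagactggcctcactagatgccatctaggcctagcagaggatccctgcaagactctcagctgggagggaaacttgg
The windows of Cyp3a11 and Cyp3a16 both held TGTTTAC, starting at -198 in Cyp3a11 and at -190 in Cyp3a16, and both held CAAAGTC, at -109 in Cyp3a11 and at -99 in Cyp3a16. Of 27025 RefSeq promoter windows of this length 3.55% held TGTTTAC and 4.36% held CAAAGTC. Neither was in the windows of Cyp3a25 or Cyp3a13. AGGTCA was found in Cyp3a11 at -162 and in Cyp3a25 at -176 and, on the other strand, at -155 (16% of all windows). TATAA was in the windows of Cyp3a11, Cyp3a16 and Cyp3a25 (25.5% of all windows), and its match nearest the start lay at -41 in Cyp3a11 and at -30 in Cyp3a16. GTTAAT was in none of the 4 windows (7.2% of all), and that of Cyp3a13, at chr5:137921570-137921869 on the minus strand, held none of the searched letters. The aligned windows of Cyp3a11 and Cyp3a16 were identical at 75.3% of 312 positions, and those of Cyp3a16 and Cyp3a44 at 94.7% of 300. For Cyp3a25 the identity was 53.0% with Cyp3a11 and 53.8% with Cyp3a16. For Cyp3a13 it lay between 48.4% and 54.5% with the other members. The identity of unrelated windows was not computed, so the lower of these values are not read as likeness.

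Values are log2 intensities of a probe set, and a level is read only against other levels of the same set. The median of all sets was 5.41 to 5.53 on each array, and the repeat arrays of a pool correlated at 0.987 to 0.996. At least 1 member set changed at every step between neighbouring stages from E16.5 to Day3, and also between E14.5 and E15.5 and between Day21 and Adult. The counts of called steps, out of 13 for each set, were 3 higher for Cyp3a11 and 2 higher for Cyp3a25. They were 2 higher and 1 lower for Cyp3a13, and 4 higher and 2 lower for Cyp3a16. Over the 13 steps, 0.0533% to 2.98% of all sets were called higher and 0.0111% to 3.08% lower. A step was called at an adjusted p under 0.05 over all sets with a change of at least 1 log2 unit (limma). These tests rest on the spread between repeat arrays, so they compare single pools and not animals.

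**Figure D1:**
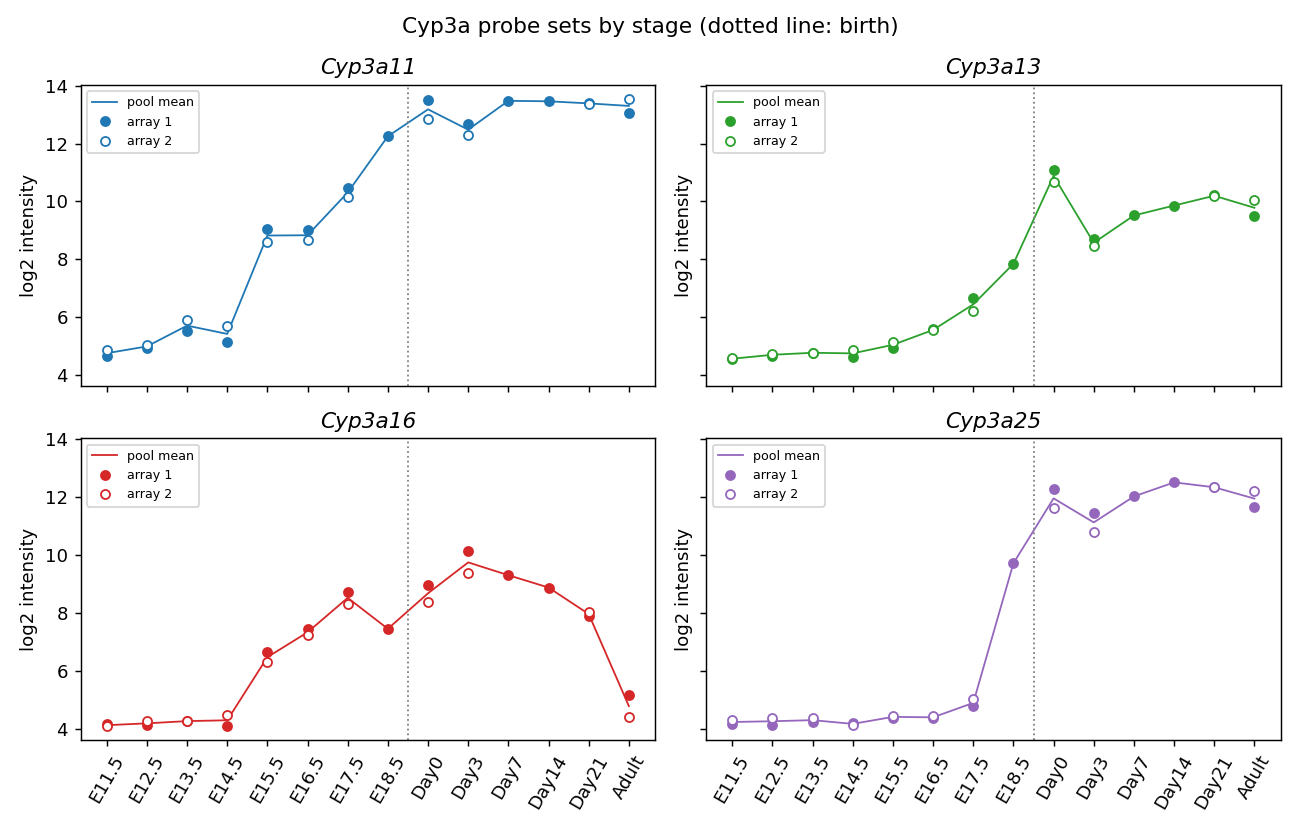
Log2 intensity of the probe sets of Cyp3a11, Cyp3a13, Cyp3a16 and Cyp3a25 (y axis) by stage (x axis). Filled points are first arrays, open points repeat arrays, lines join pool means, and the dotted line marks birth. The Cyp3a16 pool mean was highest at Day3 (9.74) and 4.78 in the Adult pool, while the other sets stayed at 8.57 or above from birth on.

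Cyp3a11 was one of the 2 genes that rose first, with a span of 420-fold between its lowest pool, E11.5, and its highest, Day7. The low end (4.76) lies under the median of every array and is not known to be above background, and the span was 691-fold under housekeeping centring. The 2 arrays of each early pool read 4.66 and 4.86 at E11.5, 4.95 and 5.04 at E12.5, 5.52 and 5.91 at E13.5, and 5.15 and 5.70 at E14.5. They read 9.04 and 8.61 at E15.5, 9.00 and 8.67 at E16.5, and 10.45 and 10.16 at E17.5, and the array of E18.5 read 12.25. After birth they read 13.51 and 12.86 at Day0, 12.67 and 12.29 at Day3, 13.47 at Day7, 13.46 at Day14, 13.39 and 13.38 at Day21, and 13.05 and 13.55 in the Adult pool. The values thus formed a low block to E14.5, a middle block at E15.5 and E16.5, and a high block from E18.5 on, with E17.5 between the last 2 of these and no array of 1 block within another. Pools of Day7, Day14, Day21, Adult and Day0, in this order of level, did not differ from the next beyond the repeat spread (95% interval of the difference), and E16.5 did not differ from E15.5.

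The jump of Cyp3a11 from E14.5 to E15.5 was 3.40 ± 0.25 log2 units (SE), 10.5-fold, with an adjusted p of 8.15e-07 by limma. It was the 6th largest rise of all sets at this step, at which 0.837% of sets were called higher. Further rises followed from E16.5 to E17.5 (1.48 ± 0.25, adjusted p = 0.00756) and from E17.5 to E18.5 (1.94 ± 0.30, adjusted p = 0.000492), limma again. The step from E16.5 to E17.5 lost its call without the second array of E16.5 (1.31, adjusted p = 0.13) or without the first of E17.5 (1.33, adjusted p = 0.126).

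Cyp3a16, the form known from fetal and newborn liver, rose at the same step and later fell back. Its arrays read 4.15 and 4.10 at E11.5, 4.12 and 4.25 at E12.5, 4.26 and 4.27 at E13.5, 4.11 and 4.48 at E14.5, then 6.65 and 6.30 at E15.5, 7.44 and 7.22 at E16.5, and 8.72 and 8.32 at E17.5. The array of E18.5 read 7.45, and the values after it were 8.97 and 8.39 at Day0, 10.13 and 9.36 at Day3, 9.30 at Day7, 8.88 at Day14, 7.91 and 8.02 at Day21, and 5.18 and 4.39 in the Adult pool. The arrays of E15.5 to Day21 lay above all arrays of E11.5 to E14.5, whereas the second Adult array was below the highest array of E14.5. In the order of levels from Day3 down to E16.5, no pool differed from the next beyond the repeat spread. Neighbours in such an order are close by construction, and pools further apart in it did differ. The steps from E17.5 to E18.5, E18.5 to Day0 and Day0 to Day3 were called, as given below. E16.5 stood above E15.5, E15.5 above Adult, and Adult did not differ from E14.5.

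The first rise of Cyp3a16, from E14.5 to E15.5, was 2.18 ± 0.27 log2 units, 4.53-fold (limma, adjusted p = 0.000115). It rose again from E16.5 to E17.5 (1.19 ± 0.27, adjusted p = 0.044 by limma, 0.431% of sets called higher). This last call was lost under median centring (1.21, adjusted p = 0.0535), under housekeeping centring (1.11, adjusted p = 0.0636) and in 16 of 22 fits that left out 1 array (0.99 to 1.39). The rises from E18.5 to Day0 (1.23 ± 0.33) and from Day0 to Day3 (1.07 ± 0.27) were called by limma with adjusted p of 0.0143 and 0.0249, where 1.19% of sets were called higher from Day0 to Day3. The rise to Day0 was 0.94 without the first array of Day0, and the Day0 to Day3 rise was 0.68 without the first array of Day3 and 0.78 without the second of Day0, none of which was called. Under quantile normalisation the rise to Day0 was 0.997 and under housekeeping centring 1.08, neither called. Its largest step was the fall from Day21 to the Adult pool, to 4.78 in the Adult pool against 7.96 at Day21, a change of -3.18 ± 0.27, 9.05-fold (limma, adjusted p = 2.3e-06). It was the 22nd largest fall of all sets at this step, at which 0.957% of sets were called lower and no other member was called.

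Cyp3a13, a form also known from intestine, rose late and peaked at birth. Its arrays read 4.56 and 4.58 at E11.5, 4.67 and 4.75 at E12.5, 4.78 and 4.77 at E13.5, 4.64 and 4.87 at E14.5, then 4.94 and 5.16 at E15.5, 5.58 and 5.55 at E16.5, 6.66 and 6.24 at E17.5, and 7.85 at E18.5. They read 11.09 and 10.68 at Day0, 8.69 and 8.46 at Day3, 9.52 at Day7, 9.86 at Day14, 10.22 and 10.17 at Day21, and 9.52 and 10.05 in the Adult pool. Both Day0 arrays exceeded every other array. Each pool from E15.5 to Day0 lay above the one before it, and those of E16.5, E17.5, E18.5 and Day0 did so beyond the repeat spread.

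From E18.5 to Day0 Cyp3a13 rose by 3.03 ± 0.21 log2 units, 8.19-fold (limma, adjusted p = 3.69e-07, rank 33 of all sets, 2.98% called higher). From Day0 to Day3 it fell by 2.31 ± 0.17 log2 units, 4.96-fold (limma, adjusted p = 5.46e-07, rank 48, 0.842% called lower). Cyp3a11 and Cyp3a25 differed by -0.70 and -0.83 at the step from Day0 to Day3 (limma, adjusted p = 0.129 and 0.0323). Both were short of 1 log2 unit and were not called. From Day3 to Day7 Cyp3a11, Cyp3a13 and Cyp3a25 differed by 0.995, 0.943 and 0.897 (limma, adjusted p = 0.0268, 0.00508 and 0.0248). These too were short of 1 log2 unit and not called. The 5 measured intestine markers summed to an intensity of 204 at Day0, 520 at Day3 and 2221 at Day7. Of these Fabp2 stood at 10.99 at Day7 and Vil1 between 4.71 and 5.24 in all pools. Cyp3a13 was lower at Day7 than at Day0 and higher than at Day3. The part of intestine in its levels was not tested.

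Cyp3a25 was low through most of fetal life, with a span of 323-fold between E14.5, its lowest pool, and Day14, its highest. Its low end (4.17) is likewise not known to be above background, and the span was 515-fold under housekeeping centring. Its 14 arrays from E11.5 to E17.5 lay between 4.13 and 5.01, the highest being the arrays of E17.5 with 4.77 and 5.01. The array of E18.5 read 9.71, and the values after it were 12.27 and 11.64 at Day0, 11.47 and 10.78 at Day3, 12.02 at Day7, 12.51 at Day14, 12.33 and 12.35 at Day21, and 11.67 and 12.22 in the Adult pool. All arrays after birth were above that of E18.5, which in turn was above all earlier ones. Pools of Day14, Day21, Day7, Day0 and Adult, in this order, did not differ from the next beyond the repeat spread.

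From E17.5 to E18.5 Cyp3a25 rose by 4.82 ± 0.27 log2 units, 28.3-fold (limma, adjusted p = 4.99e-08). It was the 7th largest rise of all sets at this step, at which 1.9% of sets were called higher. Cyp3a11 and Cyp3a13 (1.40 ± 0.21, adjusted p = 0.000399 by limma) rose there too, so 3 of 4 members were called higher. Cyp3a16 alone was called lower at this step, by -1.07 ± 0.33 (adjusted p = 0.0317 by limma, 1.67% of sets called lower), and was not called (-0.87, adjusted p = 0.149) without the first array of E17.5. A second rise of Cyp3a25, from E18.5 to Day0, was 2.24 ± 0.27 (limma, adjusted p = 4.57e-05). E18.5 had 1 array, and the 6 skeletal muscle markers summed to an intensity of 1527 there, against 233 to 316 in all other pools. The part of this in the steps to and from E18.5 was not tested.

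**Figure D2:**
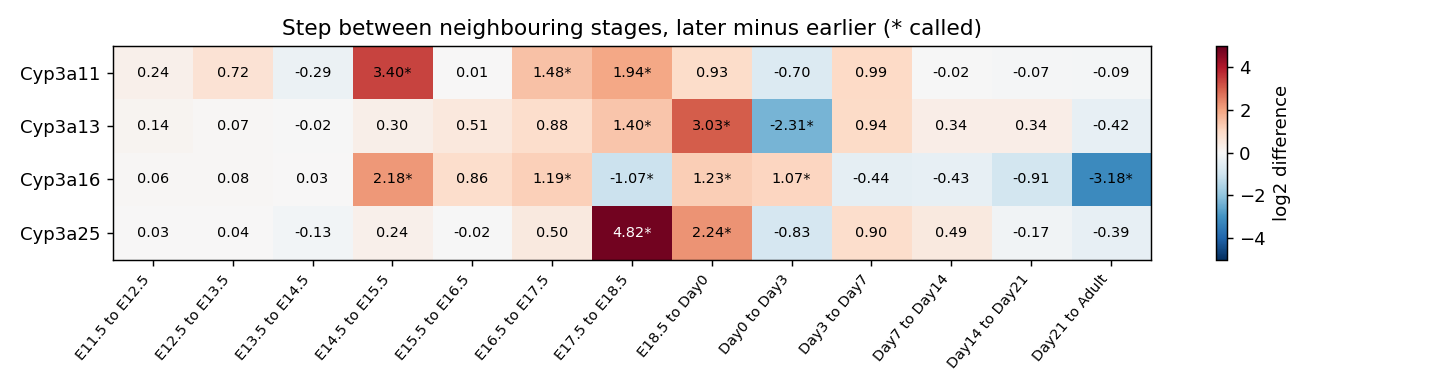
Difference in log2 intensity between each stage and the one before it (columns) for the 4 Cyp3a sets (rows), as colour and printed value, with an asterisk where the step was called by limma. Only Cyp3a11 (3.40) and Cyp3a16 (2.18) were called at E14.5 to E15.5, and only Cyp3a16 (-3.18) at Day21 to Adult.

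The order of onset was Cyp3a11 and Cyp3a16, then Cyp3a13, then Cyp3a25. Onset was taken as the first stage called higher than E11.5, with every later stage up to the set's highest called too. These contrasts share the 2 arrays of E11.5. Onset fell at E15.5 for Cyp3a11 (4.06 ± 0.25 above E11.5, adjusted p = 2.2e-08) and for Cyp3a16 (2.35 ± 0.27, adjusted p = 8.63e-06) by limma, where 2.29% of sets were called higher. It fell at E17.5 for Cyp3a13 (1.88 ± 0.17, adjusted p = 7.77e-07, 3.05% of sets) and at E18.5 for Cyp3a25 (5.48 ± 0.27, adjusted p = 1.69e-09, 4.82% of sets), also by limma. At E16.5 Cyp3a13 stood 0.99 above E11.5 and so just missed the limit of 1 log2 unit. Without the second array of E11.5 or of E16.5 its onset moved to E16.5. At equal housekeeping levels onset moved to E13.5 for Cyp3a11, E15.5 for Cyp3a13 and E17.5 for Cyp3a25, and that of Cyp3a16 stayed at E15.5. The midpoint between lowest and highest pool on the log2 scale was passed at E16.5 by Cyp3a16, at E17.5 by Cyp3a11 and at E18.5 by Cyp3a13 and Cyp3a25. Cyp3a11 passed it at E16.5 under quantile normalisation, together with Cyp3a16, and at E15.5 under housekeeping centring, before Cyp3a16.

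On the linear scale Cyp3a16 had reached a larger share of its own maximum at E17.5 than the other sets, and in the Adult pool it held the smallest. At E17.5 its intensity was 42.8% of that at Day3, while Cyp3a11 stood at 11.1%, Cyp3a13 at 4.62% and Cyp3a25 at 0.511% of their highest pools. At E18.5 the shares were 20.4% for Cyp3a16, 42.8% for Cyp3a11, 12.2% for Cyp3a13 and 14.4% for Cyp3a25. From Day7 to Day14, Day21 and the Adult pool Cyp3a16 passed through 73.6%, 54.8%, 29.1% and 3.21% of its maximum. In the Adult pool Cyp3a11 kept 88.5%, Cyp3a25 67.8% and Cyp3a13 46.6%. How much background these intensities still hold is not known.

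**Figure D3:**
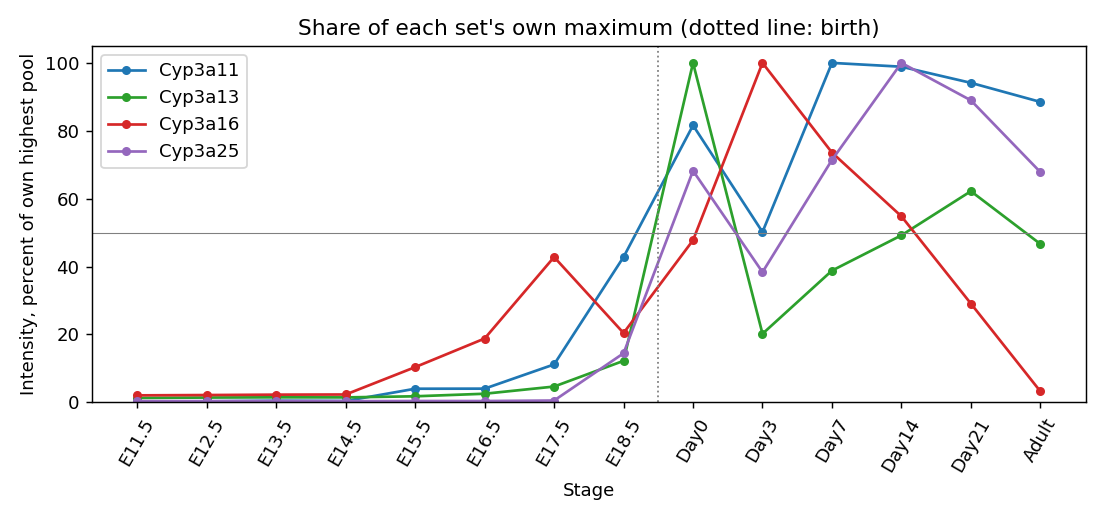
Intensity of each Cyp3a set as a percent of its own highest pool (y axis, linear) by stage (x axis), from pool means of log2 values. The maxima were at Day0 for Cyp3a13, Day3 for Cyp3a16, Day7 for Cyp3a11 and Day14 for Cyp3a25, and in the Adult pool Cyp3a16 was at 3.21%.

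To set pools against pools, the stages were divided into early fetal (E11.5 to E14.5), late fetal (E15.5 to E18.5), newborn (Day0, Day3 and Day7) and later (Day14, Day21 and Adult). Pools stand in as replicates of a class, so the error includes development within it. Late fetal pools had more Cyp3a11 than early fetal pools, at 10.06 ± 1.62 against 5.23 ± 0.43 (SD, n = 4 each). The difference was 4.83 ± 0.62 log2 units (SE), 28.4-fold, with an adjusted p of 0.00186 by limma, and was the 8th largest rise of all sets. Cyp3a16 rose as well, at 7.44 ± 0.84 in late fetal and 4.22 ± 0.08 in early fetal pools, a difference of 3.23 ± 0.71 (limma, adjusted p = 0.0156). Thus 2 of 4 members were called higher, where 1.2% of all sets were, and no member was called lower (2.87% of sets). Neither was called when the pools low in Xist described further on (E16.5, E17.5 and Adult) were left out, a choice made after seeing the data. In that fit 0 of the 45037 sets were called higher and 0 lower, against 541 and 1291 in the main fit. The values then were 5.31 (adjusted p = 0.065, limma) for Cyp3a11 and 2.74 (adjusted p = 0.0588, limma) for Cyp3a16. The difference was 1.53 (95% interval 0.31 to 2.74, adjusted p = 0.106) for Cyp3a13 and 1.61 (-0.43 to 3.66, adjusted p = 0.303) for Cyp3a25 by limma. Without E18.5 these 2 values were 0.99 and 0.33. For all 4 sets the lowest late fetal pool was above the highest early fetal pool, as it was for 10.5% of all sets. This gap was within the repeat spread for Cyp3a25 (0.098, 95% interval -0.37 to 0.57) and for Cyp3a13 (0.27, -0.097 to 0.65).

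Across birth Cyp3a25 and Cyp3a13 were called. Newborn pools stood at 11.70 ± 0.50 (SD, n = 3) for Cyp3a25, against 5.85 ± 2.58 in late fetal pools (n = 4). This difference of 5.85 ± 1.01 log2 units, 57.5-fold, was the largest rise of any set (limma, adjusted p = 0.0229). By single steps Cyp3a25 rose more before birth, by 4.82 from E17.5 to E18.5 within the late fetal class, than from E18.5 to Day0 (2.24). Newborn pools had 9.66 ± 1.16 for Cyp3a13, against 6.23 ± 1.22 in late fetal pools, a difference of 3.43 ± 0.60 (limma, adjusted p = 0.0245). The 2 called members compare with 0.577% of all sets called higher, and none was called lower (0.0844% of sets). Both lost the call without E15.5, E16.5, E17.5 or Day7, with values of 3.04 to 3.50 for Cyp3a13 and 5.36 to 5.69 for Cyp3a25. Cyp3a11 differed by 2.99 (95% interval 1.54 to 4.44, adjusted p = 0.0624) and Cyp3a16 by 1.80 (0.12 to 3.47, adjusted p = 0.307) by limma. Without E18.5 Cyp3a11 was called as well (3.72, adjusted p = 0.000988). In all 4 sets the lowest newborn pool was above the highest late fetal pool, as it was in 6.99% of all sets. This gap was within the repeat spread for Cyp3a11 (0.23, 95% interval -0.42 to 0.88) and for Cyp3a16 (0.16, -0.42 to 0.73).

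From newborn to later pools no member was called (0.187% of sets called higher and 1.77% lower). The differences were 0.34 (95% interval -1.22 to 1.89) for Cyp3a11, 0.29 (-1.12 to 1.69) for Cyp3a13 and 0.56 (-1.80 to 2.92) for Cyp3a25, which leaves changes of more than 2-fold possible. Cyp3a16 stood at 7.21 ± 2.15 in later pools and 9.24 ± 0.54 in newborn pools (SD, n = 3 each), a difference of -2.03 ± 0.82 (95% interval -3.83 to -0.24, limma, adjusted p = 0.236). Its Day14 pool (8.88) lay within the newborn range of 8.68 to 9.74, and Day21 and Adult lay below it. Without the Adult pool the difference was -0.82.

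**Figure D4:**
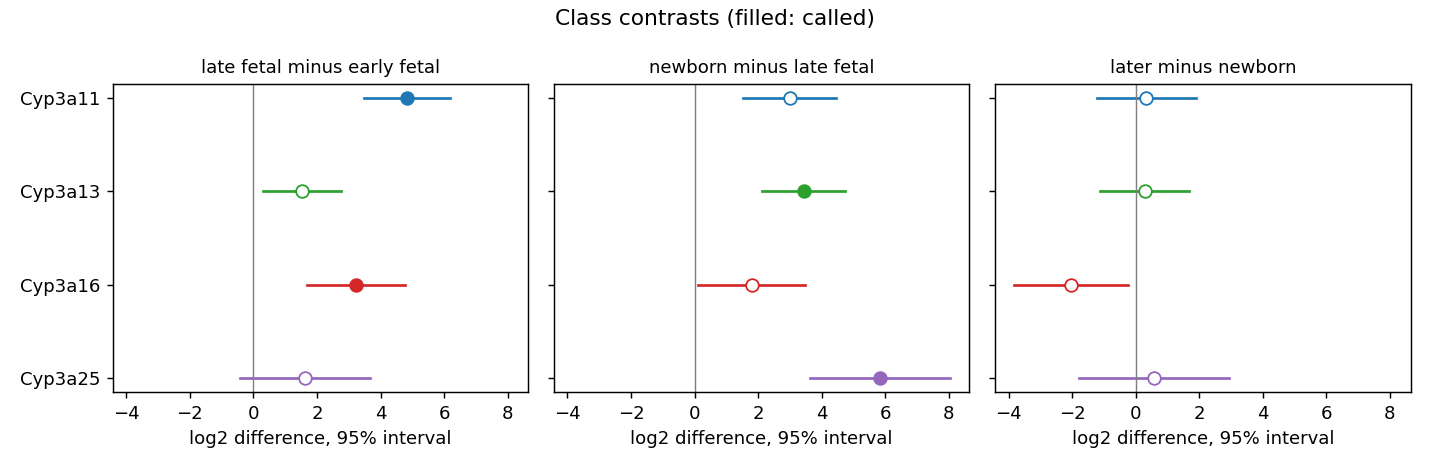
Differences between neighbouring classes of pools in log2 units (x axis) with 95% intervals for each Cyp3a set (rows), filled where called by limma. Cyp3a11 (4.83) and Cyp3a16 (3.23) were called from early to late fetal pools, Cyp3a25 (5.85) and Cyp3a13 (3.43) from late fetal to newborn pools, and no set after that.

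Cyp3a16 was next set against Cyp3a11 within each pool, as the log2 value of its set minus that of Cyp3a11. Constant differences between probes cancel when this value is compared between pools. It stood at -4.58 at Day14, -5.42 at Day21 and -8.51 in the Adult pool, against -2.35, -1.50, -1.79 and -4.80 from E15.5 to E18.5 and -4.50, -2.74 and -4.17 at Day0, Day3 and Day7. The later pools averaged -6.17 ± 2.07 (SD, n = 3) and the 7 earlier ones -3.12 ± 1.35. The difference of -3.05 had p = 0.0333 in an exact two-sided permutation test over pools, in which 0.0167 was the smallest p possible. E18.5 lay between Day14 and Day21, so the groups overlapped. Pools are consecutive stages and are exchangeable only by assumption. Without the Adult pool the difference was -1.88 (exact p = 0.111), and against Day0 to Day7 alone it was -2.37 (exact p = 0.1, the smallest possible there).

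Transcripts that mark sex changed at some of the same steps as Cyp3a16, but not always in the same direction. In the pools low in Xist described next, Cyp3a16 stood at 7.33 (E16.5), 8.52 (E17.5) and 4.78 (Adult). Xist, made from the inactive X chromosome, was measured by 3 sets. In the one that varied most, chosen after its values were seen, it stood at 4.46 at E16.5, 4.52 at E17.5 and 4.66 in the Adult pool, against 8.05 to 11.16 in the other 11 pools. Eif2s3y, a gene of the Y chromosome, stood at 7.92 at E16.5, 7.87 at E17.5 and 7.21 in the Adult pool, but also at 7.95 at E12.5 and 6.97 at E13.5, and between 4.14 and 5.19 elsewhere. The fall of Cyp3a16 from Day21 to the Adult pool thus came with a fall of Xist and a rise of Eif2s3y, and age and this difference between pools cannot be told apart. The values of Cyp3a16 of 8.88 at Day14 and 7.96 at Day21, against 9.74 at Day3, with no step between them called, lay among pools with Xist at 9.83 or above and Eif2s3y at 5.19 or below. Its rise from E14.5 to E15.5 was measured between 2 pools low in Eif2s3y, with 4.14 at E15.5 and 4.19 at E14.5. Xist differed between these pools, and not alike in its 3 sets. It stood at 8.95 at E15.5 against 10.65 at E14.5 in the set used above. In the set with the highest mean it stood at 11.12 against 10.26, and in the third at 5.84 against 6.97. The dip at E18.5 against E17.5 came with Xist at 9.67 at E18.5, against 4.52 at E17.5. The part of sex in the steps to E15.5 and to E18.5 was not tested.

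**Figure D5:**
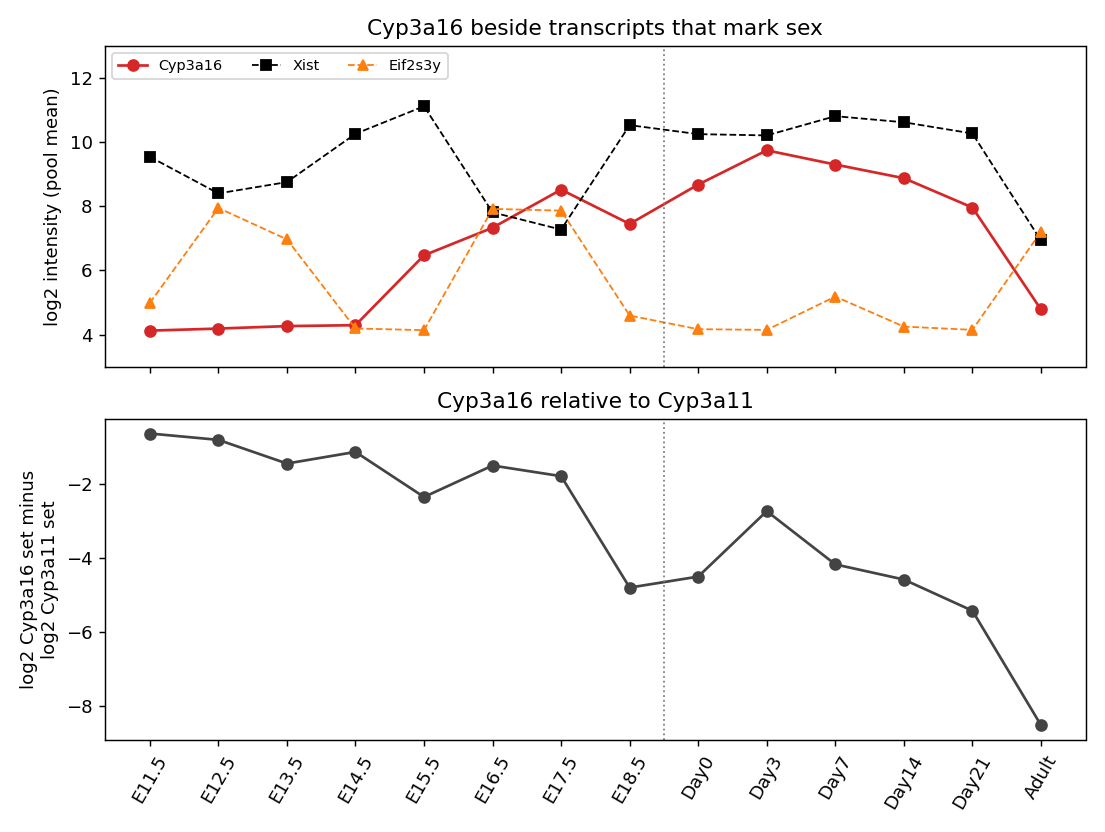
Upper panel, log2 intensity of the pool means (y axis) of Cyp3a16 and of the sets with the highest mean for Xist and Eif2s3y, by stage (x axis). Lower panel, log2 Cyp3a16 set minus log2 Cyp3a11 set per pool; it was -8.51 in the Adult pool, where Cyp3a16 stood at 4.78 and Eif2s3y at 7.21.

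The other 2 Cyp3a sets also had maxima after birth and low values later. Cyp3a44, a form known from adult female liver, stood at 9.12 at Day0, 9.65 at Day3, 9.80 at Day7, 8.08 at Day14, 5.74 at Day21 and 5.51 in the Adult pool. The set annotated to 2 further Cyp3a genes stood at 9.67, 11.07, 11.98, 9.65, 7.36 and 6.34 at these stages, with Day21 arrays 1.94 log2 units apart. From E14.5 to E15.5, where Cyp3a16 rose, the set of Cyp3a44 read 5.20 at E15.5 against 5.09 at E14.5. Genes of this family are close in sequence, and how far their sets share signal was not tested.

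Markers of the liver's cell types were called only in part at the same comparisons as the members. The 8 measured hepatocyte markers summed to an intensity of 60168 to 104421 in late fetal pools and 27680 to 31114 in early fetal ones, and 6 of the 8 were called higher (1.88% of all genes), such as the plasma protein Ahsg (4.97 ± 0.41, adjusted p = 0.000548, limma). None was called from late fetal to newborn pools (87006 to 115067), where Cyp3a25 and Cyp3a13 were. The 8 measured erythroid markers summed to 794 to 1113 in later pools, 3469 to 12284 in newborn pools and 17869 to 23865 in late fetal ones. From newborn to later pools 5 of the 8 were called lower (2.56% of all genes called lower). Across birth 1 of them, the erythroid factor Klf1, was called lower (-2.01 ± 0.41, adjusted p = 0.0441 by limma, 0.132% of all genes called lower). All 8 were lower in both comparisons, called or not. The median difference of the erythroid list was -1.48 across birth and -2.58 from newborn to later pools. None of the 8 erythroid markers was called from early to late fetal pools. In pooled whole liver, more hepatocytes and more RNA per hepatocyte cannot be told apart.

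Among regulators of Cyp3a genes the nuclear receptor Nr1i3 rose across birth. It stood at 7.53, 7.84 and 8.19 in the newborn pools, against 5.57, 5.59, 5.76 and 6.24 in the late fetal ones, a difference of 2.06 ± 0.19 (limma, adjusted p = 0.00111). It was the 1 member called of the 16 measured among 17 regulators, in any of the class comparisons (0.934% of genes called higher across birth). The list's median differences were 0.25 from early to late fetal pools, 0.80 across birth and 0.35 from newborn to later pools, beside 0.03, -0.0025 and 0.02 over all genes. The receptor Nr1i2 differed by 0.76 ± 0.24 across birth (adjusted p = 0.173, limma) and by 0.21 from early to late fetal pools, where Cyp3a11 and Cyp3a16 rose. Hnf4a, a receptor that governs many hepatocyte genes, differed by 0.49 ± 0.25 from early to late fetal pools and 0.86 ± 0.27 across birth. Neither was called. The largest uncalled differences of the list in these 2 comparisons were those of Nr1h4. They were 1.25 ± 0.38 from early to late fetal pools and 1.77 ± 0.41 across birth (limma, adjusted p = 0.0557 and 0.07).

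Of 23 measured other drug-metabolising P450 genes (28 listed), 3 were called higher in late than in early fetal pools, 3 across birth and 2 in later than in newborn pools, and none was called lower. The median differences of the list were 0.70, 1.65 and 1.27 log2 units in this order. Cyp2d26 (5.30 ± 0.60) led the first, Cyp4a14 (5.02 ± 0.97), a fatty acid hydroxylase, the second and Cyp2c29 (4.99 ± 0.20) the third, all called by limma. Of all genes, 1.88%, 0.934% and 0.269% were called higher in these comparisons, and 3.68%, 0.132% and 2.56% lower. Among 7 measured genes of electron transfer and heme none was called higher. Their median differences were 0.73 from early to late fetal pools, 0.86 across birth and 0.92 from newborn to later pools. Hmox1, which breaks heme down, was lower in later than in newborn pools (-1.90 ± 0.33, adjusted p = 0.0101, limma). The other measured genes of this list were higher there, though not called.

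The genes whose course was most like that of each member were found over the 14 pools, as a description that any shared trend of development enters. Cyp3a11 was matched most closely by Hpd, an enzyme of tyrosine breakdown (Pearson r = 0.998), followed by Mtarc1, Mat1a, Bhmt and Amy1 (0.994 to 0.996). Nearest to Cyp3a25 were Apoa5 and Rnf125 (both 0.996) and the glucose-releasing enzyme G6pc (0.995), then Hsd17b11 (0.988) and Cyp2e1 (0.985). Rnf125 and Hsd17b11 were also among the 5 nearest genes of Cyp3a13 (0.984 and 0.981), which were led by C730049O14Rik (0.986) and the cysteine dioxygenase Cdo1 (0.985). Cyp3a16 had less close matches: the lipid phosphatase Plpp1 (0.962), then Spp2, Itih2, Qpct and Pld4 (0.930 to 0.947). None of its 5 was among the 5 nearest genes of another member.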

How the data were processed

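Biotin-labelled material from the total RNA of each liver pool was hybridised to Affymetrix arrays, 25 in all, per the labels' protocols. The deposited table holds linear intensity values (12.6 to 25175) made with RMA, per the submitters' processing notes; how they were scaled, and by which version, is not stated there, and array medians of 42.6 to 46.3 differ. The log2 of each intensity was taken, without a pseudocount. Of 45101 probe sets 64 array controls were left out. Platform annotation gave 34958 sets 1 symbol, 932 several and 9211 none; updating symbols through Entrez identifiers against RefSeq GRCm38.p6 changed 0, and 204 found no match. A gene other than the members was represented by its set with the highest mean. The members and lists were chosen with earlier results of these data known.

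Repeat arrays are technical and were averaged for the 4-class fit over 14 pools; steps and onset used all 25 arrays with 1 mean per stage. Both used limma 3.58.1 in R 4.3.3, with Benjamini-Hochberg adjustment over 45037 sets and calls at 0.05 and 1 log2 unit. On simulated data with 200 changed sets of 45037, the class fit of later against newborn pools recovered, at the adjusted p alone, 65% of the 2-fold changes and 94% of the 4-fold ones, and 6.47% of its finds were false. The fit of the Day21 to Adult step recovered 94% and 100%, with 6.73% false. Named genes were all member sets, of each list up to 4 called and 2 other members per comparison, and the 5 genes with the highest Pearson r per member; not all that qualify are printed. Nr1h4 was named besides these, for its size of change. No gene of the skeletal muscle, intestine, pancreas and sex mark lists was called in a class comparison, and 1 housekeeping gene (B2m) was. Permutation tests used scipy 1.17.1, promoter alignments Biopython 1.88 (global, with end gaps penalised), with Python 3.11.15, pandas 2.3.3, numpy 2.4.6 and matplotlib 3.10.9. Protein and probe sequences were not used here.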

Additional observations from a re-analysis of the deposited data

Results flagged for a closer look

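The E18.5 pool stood apart from the other late fetal pools in Cyp3a25, at 9.71 against at most 4.89, a gap of 4.82 log2 units out of a range of 5.32. That ratio of 0.906 exceeds the Dixon limit of 0.829 for 4 values. It was the 1 case among 8 groups of 4 pools examined. The limit is made for values drawn alike, whereas these pools are consecutive stages, so it gives no chance rate here. The gap is the rise from E17.5 to E18.5 described above, and Day0 stood higher still, at 11.95. E18.5 had 1 array and high skeletal muscle markers, and the part of either was not tested.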

How the results depend on the processing

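Leaving out pools, the differences from early to late fetal pools spanned 4.10 to 5.24 (Cyp3a11), 0.99 to 1.92 (Cyp3a13), 2.87 to 3.55 (Cyp3a16) and 0.33 to 2.10 (Cyp3a25), with no call changed. Those from late fetal to newborn pools spanned 2.58 to 3.72 (Cyp3a11), 2.82 to 3.97 (Cyp3a13), 1.47 to 2.16 (Cyp3a16) and 5.36 to 7.13 (Cyp3a25). Those from newborn to later pools spanned 0.05 to 0.55 (Cyp3a11), -0.25 to 0.90 (Cyp3a13, below 0 without Day3), -2.87 to -0.82 (Cyp3a16) and 0.28 to 0.72 (Cyp3a25). Cyp3a16 against Cyp3a11 spanned -3.85 to -1.88, with an exact p above 0.05 without Day14, Day21 or Adult. Onset differences spanned 3.85 to 4.28, 2.17 to 2.52, 1.66 to 2.09 and 5.42 to 5.54 for Cyp3a11, Cyp3a16, Cyp3a13 and Cyp3a25 when 1 array was left out, all called.

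Across birth Cyp3a11 was also called at 2.78 (quantile normalisation), 2.77 (housekeeping centring), 2.99 (dim sets left out, and with a trend in eBayes), 3.03 (first arrays only), 3.09 (Day14 as newborn) and 3.51 (stages with 1 array left out). With E15.5 as early fetal, Cyp3a16 was 3.10 from early to late fetal pools, and across birth Cyp3a13 was 3.04 and Cyp3a25 5.37, none called. Housekeeping centring moved the median of all sets by 0.26, -0.22 and 0.34 in the 3 class comparisons, and Cyp3a13 was called at 1.78 in the first. Without the pools low in Xist, a choice made after seeing the data, no member was called: 5.31 (Cyp3a11) and 2.74 (Cyp3a16) from early to late fetal pools, and 3.21 (Cyp3a13) and 4.64 (Cyp3a25) across birth. Of all sets, 0 were called higher and 0 lower from early to late fetal pools in this fit, and 9 higher and 2 lower across birth. The difference of Cyp3a16 against Cyp3a11 was then -1.29 (exact p = 0.19). With the Adult pool kept, it was -2.37 against Day0 to Day7 alone. The causes were not tested. Sets called across birth numbered 260 higher and 38 lower, against 67 to 710 and 12 to 237 when 1 pool was left out. Repeat differences correlated above 0.1 in 37 of 55 pairs of stages (median 0.36, range -0.56 to 0.70). As not every pair did, the numbers were not taken to pair the arrays. With the repeat number as a replicate block no call of a step or onset changed, and the Day21 to Adult step of Cyp3a16 was -3.18 (limma, adjusted p = 4.73e-07).

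The few pools, 1 for each stage, limit the precision, and low sets near the array background cannot be ranked.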
